A study of Mus musculus with 24 samples.

Results

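ATAC-seq peak lists of cultured mouse epidermal stem cells (EpdSCs) expressing SOX9 alone (WT-SOX9) and SOX9 together with ARID1a (SOX9+ARID1a) were compared. Peaks of the 2 lists, 52278 and 57982, were merged into regions wherever they overlapped by at least 1 bp. This gave 68701 regions, of the 134385 that the 12 peak lists of the series form together. Of these, 13104 were in the WT-SOX9 list only, which is 19.1% of the regions, 16436 were in the SOX9+ARID1a list only (23.9%) and 39161 were in both (57.0%).

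ATAC-seq uses the Tn5 transposase, which inserts adapters preferentially into open chromatin. Cells of both arms were keratinocytes from the back skin of male CD1 mice, with the genotypes K14rtTA; TRE-myc-Sox9 and K14rtTA; TRE-myc-Sox9; TRE-ARID1a. K14rtTA places a doxycycline (DOX)-dependent activator under the keratin 14 promoter, so the TRE transgenes were switched on in basal keratinocytes by DOX at 1 µg per ml. A DOX day of 3 was named in the labels of WT-SOX9 replicate 1 and not of replicate 2, and the peak names of SOX9+ARID1a also record 3 days. Per the study's methods, the SOX9 versions compared in culture (wild type, ΔHMG-SOX9 without the DNA-binding domain and ΔTA-SOX9 without the transactivation domain) were carried by lentivirus into K14rtTA cells with puromycin selection. The ARID1a coding sequence was likewise carried by lentivirus, into Krt14-rtTA;TRE-mycSOX9 cells. The labels give TRE-myc-Sox9 for both arms and do not name the lentivirus, so whether SOX9 was supplied in the same way is not settled by these sources. If it was not, that difference and ARID1a cannot be told apart. The uninduced list (noDOX, K14rtTA; TRE-myc-Sox9 without DOX) carries the genotype of the WT-SOX9 cells, and no arm with ARID1a but no SOX9 was analysed here. Other lists served only to place the regions. In culture these were ΔHMG-SOX9 and ΔTA-SOX9 (TRE-myc-Sox9noHMG and TRE-myc-Sox9noTA), AFOS (TRE-FLAG-AFOS, a FOS derivative that blocks DNA binding by AP1) and SOX9+AFOS (TRE-myc-Sox9; TRE-FLAG-AFOS), all in K14rtTA cells given the same DOX dose. In skin they were EpdSCs sorted from K14rtTA; TRE-myc-Sox9 mice before DOX at postnatal day 21 (D0), after 1, 2 and 6 weeks of DOX at days 28, 35 and 63 (W1, W2 and W6), and from skin grafted on immunocompromised hosts after 12 weeks (W12). Each list was called on the merged reads of 2 biological replicates, so that no spread between replicates was available, no test was possible, and regions are not replicates of a condition. Intervals given below are 95% Wilson intervals for shares and Newcombe intervals for differences of shares, and cover counting error only.

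SOX9 is a pioneer transcription factor, able to bind its motif in closed chromatin, and a regulator of hair follicle stem cell identity. ARID1A is a DNA-binding subunit of the canonical BAF form of SWI/SNF, an ATP-dependent remodeller that slides and evicts nucleosomes. AP1, made of FOS and JUN family proteins, binds many active enhancers of keratinocytes and is known to work with SWI/SNF.

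The delivered genes were examined first. A coding sequence without introns leaves peaks over exons. Peaks over Arid1a exons past the first numbered 14 in the SOX9+ARID1a list, with scores of 3.96 to 38.2, and 0 in the WT-SOX9 list. The noDOX list had 1, over the last exon, exon 20. Sox9 (chr11, 3 exons) was covered in the WT-SOX9 list by a single 3425-bp peak over all its exons (score 21.2). In the SOX9+ARID1a list Sox9 had 3 separate peaks, with scores of 6.49 over exon 1, 4.14 over exon 2 and 3.71 over exon 3. The noDOX list had an exon 1 peak of score 21.8, an exon 3 peak of score 3.71 and none over exon 2. Peak scores over Sox9 were thus lower in SOX9+ARID1a than in WT-SOX9. The noDOX exon 1 score was near that of the WT-SOX9 peak, so these scores do not separate delivered Sox9 from the endogenous gene. Of the other culture lists, SOX9+AFOS also had 3 separate Sox9 peaks (13.3, 4.61 and 5.11). ΔHMG-SOX9 had a 2902-bp peak over exons 1 to 3 (71.9) beside one over exon 1 (5.27). ΔTA-SOX9 had a 2006-bp peak over exons 1 and 2 (101.4), and AFOS an exon 1 peak (22.8). The part that the lower scores in SOX9+ARID1a play in the differences below was not tested. All 10 keratinocyte markers examined had a peak near their start in both lists. Of the other marker lists, fibroblast (1 of 7), endothelial (1 of 5), immune (2 of 6), melanocyte (1 of 5) and Schwann (1 of 3) had the same counts in both.

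The sequences of regions below show what the classes contain, as 160 bp around the region's centre on the plus strand of GRCm38, named by the gene with the nearest coding transcription start site (TSS). Capitals mark SOX matches (ACAATAG or ACAATGG, or their reverse complements CTATTGT and CCATTGT) and AP1 matches (TGACTCA or its reverse complement TGAGTCA). The highest-scoring regions of the WT-SOX9 list only that held either match were at Agbl1 (chr7:76408288-76408447, intronic), Tfap2b (chr1:19850073-19850232, intergenic), Adamts12 (chr15:11174080-11174239, intronic) and Gtf3c5 (chr2:28591514-28591673, intergenic).
Agbl1: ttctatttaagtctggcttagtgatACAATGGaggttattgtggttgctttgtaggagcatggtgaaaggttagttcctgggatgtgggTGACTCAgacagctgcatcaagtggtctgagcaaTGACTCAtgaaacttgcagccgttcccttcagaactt
Tfap2b: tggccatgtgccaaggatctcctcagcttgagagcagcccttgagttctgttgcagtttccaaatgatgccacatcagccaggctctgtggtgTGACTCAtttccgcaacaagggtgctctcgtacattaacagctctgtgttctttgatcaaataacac
Adamts12: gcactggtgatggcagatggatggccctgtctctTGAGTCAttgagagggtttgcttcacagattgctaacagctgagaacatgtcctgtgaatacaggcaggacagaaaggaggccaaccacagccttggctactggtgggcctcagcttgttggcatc
Gtf3c5: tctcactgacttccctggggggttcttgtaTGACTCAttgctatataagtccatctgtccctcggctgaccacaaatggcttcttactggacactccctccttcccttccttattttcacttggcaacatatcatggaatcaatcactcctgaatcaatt
The Agbl1 region (score 41.9) held 1 SOX and 2 AP1 matches. Of these 4 regions, the Gtf3c5 region (34.3) overlapped a noDOX peak and the others did not.

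The corresponding regions of the SOX9+ARID1a list only were at Adam26b (chr8:43420188-43420347, intergenic), Magi2 (chr5:20522924-20523083, intronic), Irx3 (chr8:91737177-91737336, intergenic) and Tiam1 (chr16:90145382-90145541, intergenic).
Adam26b: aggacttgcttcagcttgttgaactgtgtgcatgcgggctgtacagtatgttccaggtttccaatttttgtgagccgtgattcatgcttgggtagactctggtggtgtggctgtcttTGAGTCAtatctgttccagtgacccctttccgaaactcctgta
Magi2: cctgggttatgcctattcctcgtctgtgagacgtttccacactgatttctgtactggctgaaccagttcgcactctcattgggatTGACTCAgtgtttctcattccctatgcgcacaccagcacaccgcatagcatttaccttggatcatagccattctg
Irx3: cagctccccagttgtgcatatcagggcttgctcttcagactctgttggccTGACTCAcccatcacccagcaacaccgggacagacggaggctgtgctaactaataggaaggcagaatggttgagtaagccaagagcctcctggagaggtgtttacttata
Tiam1: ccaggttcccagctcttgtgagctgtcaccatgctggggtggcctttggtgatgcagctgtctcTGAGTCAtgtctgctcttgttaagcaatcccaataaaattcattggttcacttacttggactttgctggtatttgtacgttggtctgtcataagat
Each held 1 AP1 match and no SOX match, all 4 overlapped a noDOX peak, and their scores were 70.6, 48.9, 46.0 and 40.8.

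Among shared regions, those with either match and the highest ranks in both lists were at 3110018I06Rik (chr12:106764639-106764798, intergenic), Ank2 (chr3:126831610-126831769, intronic) and Gm14325 (chr2:177837977-177838136, intronic).
3110018I06Rik: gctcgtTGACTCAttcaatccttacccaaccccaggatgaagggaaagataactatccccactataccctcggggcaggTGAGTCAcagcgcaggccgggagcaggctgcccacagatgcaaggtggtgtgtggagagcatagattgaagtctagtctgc
Ank2: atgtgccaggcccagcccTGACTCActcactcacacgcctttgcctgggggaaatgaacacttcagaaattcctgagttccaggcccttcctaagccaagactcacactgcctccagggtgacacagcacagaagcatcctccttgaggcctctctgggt
Gm14325: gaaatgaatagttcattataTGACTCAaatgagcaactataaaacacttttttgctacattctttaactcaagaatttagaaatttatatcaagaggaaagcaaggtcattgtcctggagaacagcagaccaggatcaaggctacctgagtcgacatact
All of these were open in noDOX too. For contrast, the 3 highest-ranked shared regions that had a SOX match and no noDOX peak, chosen after the motif shares were seen, were at Dock2 (chr11:34739053-34739212, intronic), Bmp2k (chr5:96957061-96957220, intergenic) and Gsx2 (chr5:75063321-75063480, intergenic).
Dock2: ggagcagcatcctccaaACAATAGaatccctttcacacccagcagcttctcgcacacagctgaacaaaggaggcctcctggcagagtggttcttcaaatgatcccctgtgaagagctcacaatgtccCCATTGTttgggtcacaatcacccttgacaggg
Bmp2k: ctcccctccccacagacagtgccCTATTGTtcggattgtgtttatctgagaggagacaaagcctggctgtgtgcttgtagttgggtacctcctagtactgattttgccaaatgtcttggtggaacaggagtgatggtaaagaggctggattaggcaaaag
Gsx2: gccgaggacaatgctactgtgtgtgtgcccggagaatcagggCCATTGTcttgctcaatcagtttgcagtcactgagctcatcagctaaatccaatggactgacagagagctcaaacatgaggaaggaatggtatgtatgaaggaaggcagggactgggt
Their scores in WT-SOX9 and SOX9+ARID1a were 88.8 and 50.7 at Dock2, 62.8 and 55.7 at Bmp2k and 52.6 and 53.6 at Gsx2. The Dock2 region held 2 SOX matches, and all 3 regions were also open in SOX9+AFOS and, in skin, at W2.

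The strongest peaks of either arm were almost always shared. Of the 1000 highest-scoring peaks, 99.9% of those in WT-SOX9 and 99.7% of those in SOX9+ARID1a overlapped the other list. In the lowest score decile this fell to 44.1% (42.7 to 45.4) and 41.0% (39.7 to 42.2). The score is the authors' peak score, in which the total over all peaks was similar between the lists (943515 and 932268). The median score was 20.4 for shared regions, against 5.05 for WT-SOX9-only and 5.38 for SOX9+ARID1a-only regions, with 3 as the lowest score kept. A region absent from a list may therefore hold signal under that minimum. Counting regions of one list only at a score of at least 5, the numbers were 6642 for WT-SOX9 and 8989 for SOX9+ARID1a.

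**Figure D1:**
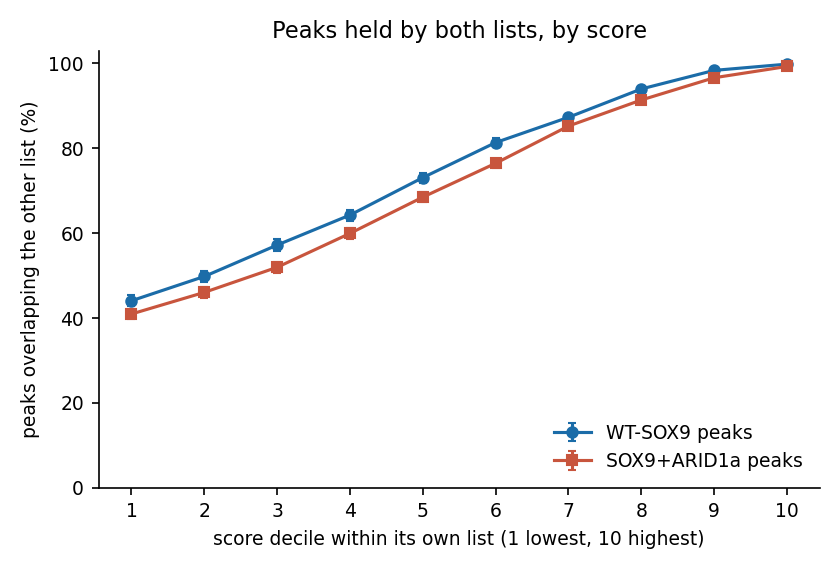
Share of peaks that overlap the other list (y axis, percent) by score decile within their own list (x axis), with 95% Wilson intervals. Both curves climb from 44.1% and 41.0% in the lowest decile to 99.8% and 99.3% in the highest.

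Peaks of SOX9+ARID1a were narrower, with a median of 411 bp against 535 bp and a widest peak of 2227 bp against 10772 bp. Of the shared regions, 2214 held more than 1 SOX9+ARID1a peak and 13 more than 1 WT-SOX9 peak. The peak names of SOX9+ARID1a, as of AFOS and SOX9+AFOS, record fragments as input, and those of WT-SOX9 do not. AFOS and SOX9+AFOS had median widths of 464 and 529 bp and widest peaks of 3560 and 3583 bp, both wider than SOX9+ARID1a. The part of peak calling in the width was not tested.

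Promoters separated the classes. Regions within 1 kb of the TSS of a protein-coding gene made up 12.7% (12.1 to 13.2) of the WT-SOX9-only regions, 2.45% (2.22 to 2.69) of the SOX9+ARID1a-only regions and 9790 of the 39161 shared ones. SOX9+ARID1a-only minus WT-SOX9-only was -10.2 percentage points (-10.8 to -9.60), and -16.2 with a score of at least 5 required in both lists. With peaks cut to 200 bp around their centres it was -7.11, from shares of 14.1% and 21.2%. Of the promoter regions in the WT-SOX9 list only, 1300 of 1658 overlapped a noDOX peak. The counts were 230 of 402 for SOX9+ARID1a-only promoter regions and 9681 of 9790 for shared ones. SOX9+ARID1a-only regions lay more often in introns (55.4% against 45.4%) and about as often between genes (38.3% against 37.9%). WT-SOX9-only regions were more often over 50 kb from a TSS (37.1% against 31.0%).

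AP1 matches were found in 30.4% (29.7 to 31.1) of SOX9+ARID1a-only regions and 11.1% (10.6 to 11.7) of WT-SOX9-only regions, counting the central 200 bp and either strand. Shared regions held them in 20.6% and all 68701 regions in 21.1%. The difference was 19.2 percentage points (18.3 to 20.1). SOX matches went the other way, with 11.97% (11.4 to 12.5) of WT-SOX9-only and 5.15% (4.83 to 5.50) of SOX9+ARID1a-only regions, against 7.10% of all regions. That difference was 6.81 percentage points (6.17 to 7.47), and 11.3 when the whole region was scanned. Regions over 1 kb from a TSS, a setting chosen after seeing the data, gave AP1 shares of 30.5% and 12.5% and SOX shares of 5.15% and 13.3% for SOX9+ARID1a-only and WT-SOX9-only regions. The AP1 share was higher in SOX9+ARID1a-only regions in the weakest regions (29.6% against 11.8% in the lowest score quintile) and in the strongest (24.6% of 236 against 8.60% of 93 in the highest).

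Of the other motifs, CTCF, the insulator protein, was matched in 5.26% of WT-SOX9-only, 0.414% of SOX9+ARID1a-only and 1.71% of shared regions. The WT-SOX9-only matches were most frequent in weak peaks, at 7.10% of the lowest score quintile, 2.49% of the middle one and 0 of 93 regions in the highest. Shared regions, ranked by the mean of their 2 percentiles, fell likewise, at 6.62%, 1.59% and 0.257%. In the lowest quintile SOX9+ARID1a-only regions had 0.733%. The classes differ in their spread over the quintiles, so the shares over whole classes also carry that difference. RUNX (TGTGGT on either strand) was matched in 17.1% and 18.1% of WT-SOX9-only and SOX9+ARID1a-only regions, and AGATAA, the motif of GATA factors, in 10.2% and 9.59%. The control motif TBX (AGGTGTGA on either strand) was matched in 0.839% and 1.86%, against 1.26% of all regions. A motif included as a control thus also differed between the classes.

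Open state without DOX divided the classes further. A noDOX peak overlapped 54.0% (53.2 to 54.7) of SOX9+ARID1a-only regions and 34.5% (33.7 to 35.3) of WT-SOX9-only regions, a difference of 19.5 percentage points (18.3 to 20.6). Among the 236 SOX9+ARID1a-only regions of the highest score quintile, 91.9% had a noDOX peak, against 46.2% of the 93 WT-SOX9-only regions there. SOX matches were held by 16.05% of the 8582 WT-SOX9-only regions without a noDOX peak and by 18.4% of the 5508 shared regions without one. They were held by 6.68% of the 7565 SOX9+ARID1a-only regions without a noDOX peak. With a noDOX peak, the SOX share was 4.22%, 4.30% and 3.86% for WT-SOX9-only, shared and SOX9+ARID1a-only regions. AP1 matches were most frequent, at 35.8%, in the 8871 SOX9+ARID1a-only regions that were open in noDOX, and stood at 24.0% in those that were not.

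**Figure D2:**
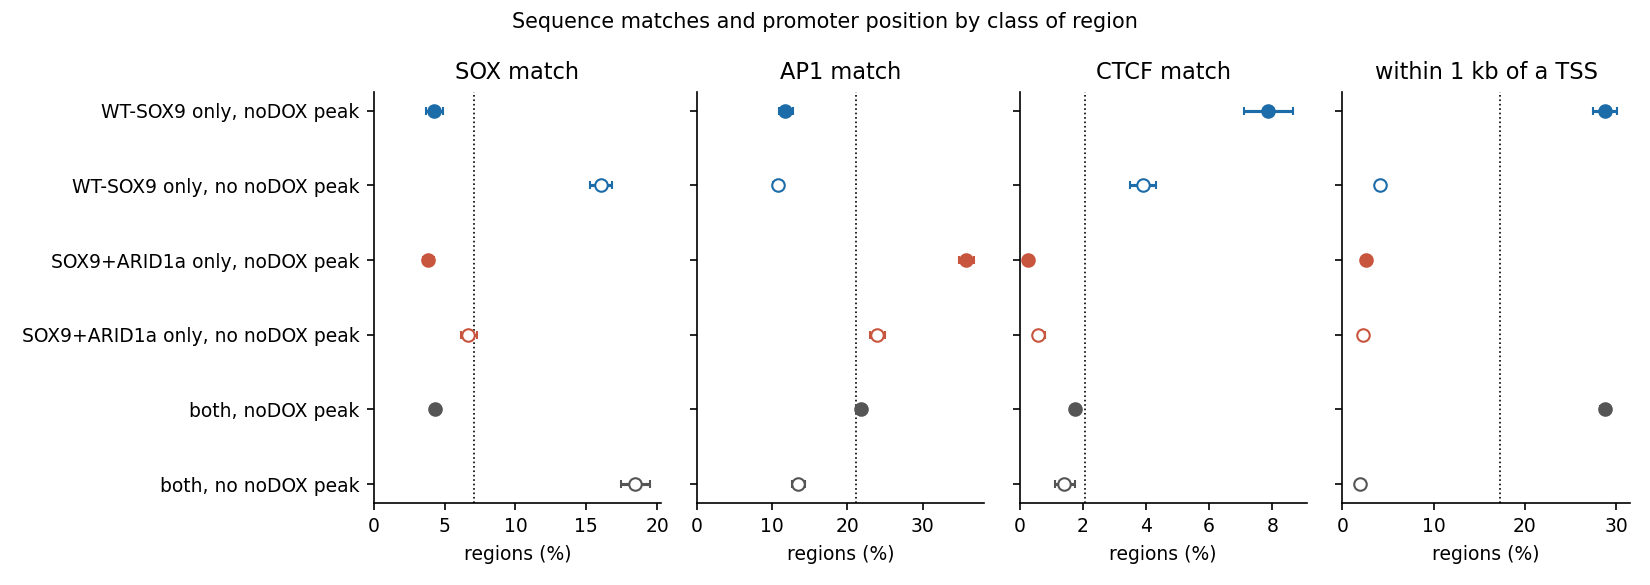
Percent of regions (x axes) with a SOX, AP1 or CTCF match in the central 200 bp, or within 1 kb of a TSS, for the 3 classes split by a noDOX peak (filled, noDOX peak; open, none). Bars are 95% Wilson intervals and the dotted line is the share of all regions. SOX is highest in the regions without a noDOX peak that WT-SOX9 holds (16.05% and 18.4%), and AP1 in the SOX9+ARID1a-only regions with one (35.8%).

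Read from the noDOX list, 63.3% of its 53093 peaks overlapped both lists, 8.55% WT-SOX9 only, 15.9% SOX9+ARID1a only and 12.3% neither. The noDOX peaks present in SOX9+ARID1a but missing from WT-SOX9 were thus more numerous (8430) than the reverse (4542). Both kinds were weak in noDOX, with median scores of 5.95 and 5.76, against 18.6 for noDOX peaks found in both lists.

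SOX9+ARID1a-only regions were found in each of the other culture lists more often than WT-SOX9-only regions. Of them, 11.01% had no peak in any of the 10 other lists, against 32.9% of WT-SOX9-only regions. Regions found in all 5 other culture lists went the other way, at 6.75% of SOX9+ARID1a-only and 10.1% of WT-SOX9-only regions. Any skin list overlapped 51.7% and 52.8%. AFOS shared 52.3% of SOX9+ARID1a-only and 32.0% of WT-SOX9-only regions. ΔHMG-SOX9 shared 41.8% and 33.4%, and ΔTA-SOX9 45.0% and 32.7%. SOX9+AFOS shared 34.7% and 31.1%. In skin the order varied with time. The W1 list overlapped 28.3% of SOX9+ARID1a-only and 30.9% of WT-SOX9-only regions, the W2 list 29.3% and 35.7%, and the W6 list 37.2% and 45.3%. At W12 both shares were 40.9%. At D0 the shares were 29.1% and 27.8%. Regions open at D0 and not at W2 made up 7.10% of SOX9+ARID1a-only and 3.17% of WT-SOX9-only regions, and regions open at W2 and not at D0 made up 7.26% and 11.1%.

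**Figure D3:**
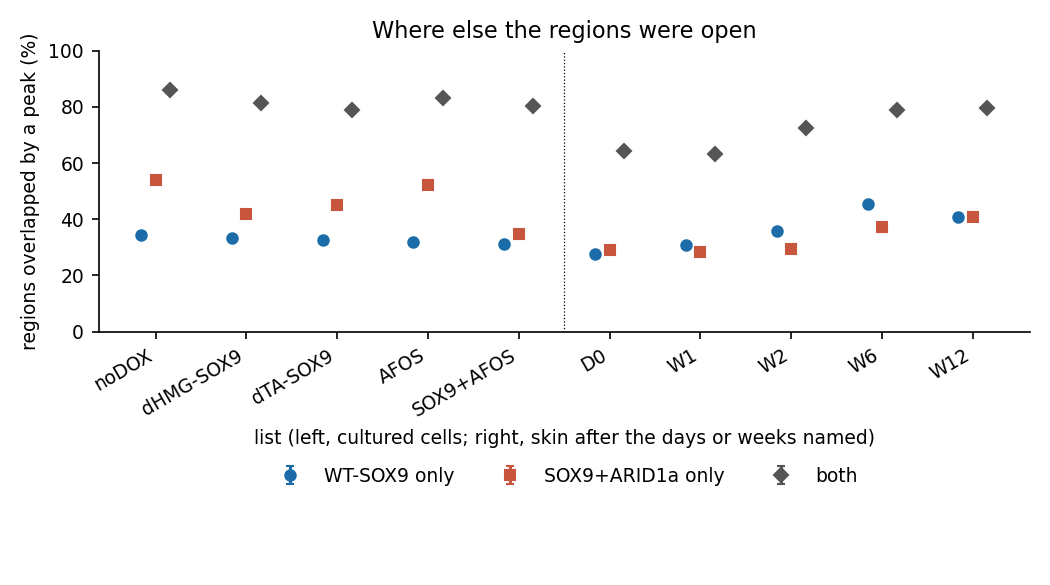
Percent of regions of each class (y axis) overlapped by a peak of the list named on the x axis, with 95% Wilson intervals; culture lists stand left of the dotted line and skin lists right of it. SOX9+ARID1a-only regions exceed WT-SOX9-only regions most in noDOX (54.0% against 34.5%) and AFOS, fall below them at W1, W2 and W6, and equal them at W12 (40.9%).

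Shared regions differed widely in rank. Spearman's rho of the scores of the 39161 shared regions was 0.547, the lowest of the 21 pairs of culture lists, although the share of regions held by both (57.0%) ranked 8 of 21. The points share a genome and a peak caller, and rho is a description. Counting a shift of at least 25 percentiles of the own list, 7452 shared regions (19.0%) ranked higher in SOX9+ARID1a and 6022 (15.4%) ranked lower. AP1 matches were held by 30.7% (29.7 to 31.8) of the regions that ranked higher and 7.85% (7.20 to 8.56) of those that ranked lower. Promoters went the opposite way, with 2.83% of the regions that ranked higher and 47.9% of those that ranked lower within 1 kb of a TSS. SOX matches differed less, at 4.88% and 7.47%. A noDOX peak was present in 93.0% of the regions that ranked higher, 74.2% of those that ranked lower and 85.9% of all shared regions.

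Set beside the other culture arms, SOX9+ARID1a had an AP1 content within the range of the arms without full-length SOX9 and an intermediate SOX content. SOX matches were in 7.82% of WT-SOX9 peaks, 5.97% of SOX9+ARID1a peaks and 5.49% of SOX9+AFOS peaks, and in 3.63% to 4.0% of the noDOX, ΔHMG-SOX9, ΔTA-SOX9 and AFOS peaks. AP1 matches were in 24.5% of SOX9+ARID1a peaks, within the 23.5% to 26.5% of those 4 lists, against 18.4% in WT-SOX9 and 12.6% in SOX9+AFOS. The ranks of promoters set SOX9+ARID1a apart from all 6 other lists. Its peaks within 1 kb of a TSS had a median score percentile of 63.8, against 74.1 to 81.1 in the others, and its AP1 peaks one of 50.3, against 44.2 to 46.8. AFOS and SOX9+AFOS, whose peak names also record fragments, had promoter percentiles of 74.1 and 76.1. The parts of ARID1a, of the peak-calling input and of whatever underlies the lower Sox9 peak scores cannot be told apart in these shares.

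**Figure D4:**
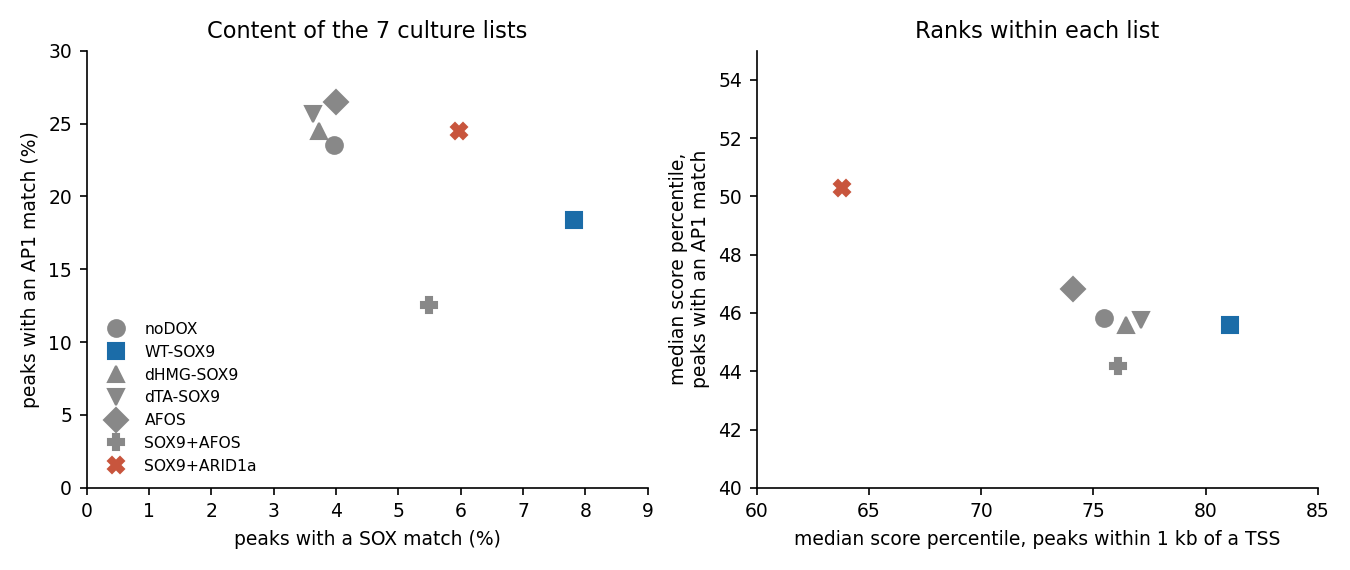
The 7 culture lists, 1 point each. Left, percent of peaks with a SOX match (x) and with an AP1 match (y); right, median score percentile of peaks within 1 kb of a TSS (x) and of peaks with an AP1 match (y), on axes that do not start at 0. SOX9+ARID1a lies between WT-SOX9 and the noDOX group in SOX content (5.97%) and stands apart on the right (63.8 and 50.3).

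The same classes were formed for WT-SOX9 against 2 other arms, with the WT-SOX9 list in common. ΔHMG-SOX9-only regions held AP1 in 33.6% and overlapped noDOX in 57.6%, beside 30.4% and 54.0% for SOX9+ARID1a-only regions. SOX9+AFOS-only regions had an AP1 share of 6.54% and a noDOX overlap of 29.7%. WT-SOX9-only regions held AP1 in 13.1% against ΔHMG-SOX9, in 26.2% against SOX9+AFOS and in 11.1% against SOX9+ARID1a. They held CTCF in 2.72%, 1.53% and 5.26%, and promoters in 4.13%, 5.45% and 12.7%. Regions of the other list only held CTCF in 1.43% (ΔHMG-SOX9), 3.58% (SOX9+AFOS) and 0.414% (SOX9+ARID1a), and promoters in 3.88%, 3.87% and 2.45%.

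Epidermal genes carried more SOX9+ARID1a-only regions than WT-SOX9-only ones. Within 10 kb of 30 genes of the epidermal lineage lay 187 regions, of which 14 were WT-SOX9 only (7.49%, 4.51 to 12.2), 48 SOX9+ARID1a only (25.7%, 19.9 to 32.4) and 125 shared. Over all regions the shares were 19.1% and 23.9%, so the SOX9+ARID1a-only share was near that of all regions and the WT-SOX9-only share was lower. Of the 48, 35 overlapped a noDOX peak, beside 54.0% of all SOX9+ARID1a-only regions. By gene, 19 of the 30 had more SOX9+ARID1a-only than WT-SOX9-only regions, 4 had fewer and 7 had equal numbers. Of the 16518 protein-coding genes with a region in the same window, 31.5% had more, 27.7% fewer and 40.8% equal numbers. Of the 125 shared regions, 23 ranked at least 25 percentiles higher in SOX9+ARID1a and 17 lower, beside 19.0% and 15.4% of all shared regions. Their median shift was 4.33 percentiles, beside 1.03 for all shared regions.

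Trp63, the master regulator of the epidermal lineage, had 8 SOX9+ARID1a-only regions, 0 WT-SOX9-only and 10 shared. The scores of the 8 ran from 3.61 to 13.2, and 7 of them overlapped a noDOX peak, beside 54.0% of the class. Over chr16, which holds Trp63, 28.2% of regions were SOX9+ARID1a only and 15.7% WT-SOX9 only. Shared regions of chr16 had a median shift of 5.34 percentiles. The shared Trp63 regions had a median shift of 13.8 percentiles, with scores in SOX9+ARID1a and WT-SOX9 of 17.8 and 4.62 in the region 43 bp from a start, 30.2 and 5.24 in an intronic region and 65.8 and 36.5 in another. Scores were lower with ARID1a in the region 98711 bp from a start (12.2 and 33.2) and slightly lower in that at 42324 bp (19.3 and 19.7). The median shift of the shared regions was negative at Gata3 (-9.30), Klf4 (-11.1) and Cebpa (-14.4), which encode other epidermal transcription factors. Among receptors and ligands, Notch1, which drives epidermal differentiation, had 5 SOX9+ARID1a-only regions and 1 WT-SOX9-only, and Hbegf, an EGF receptor ligand, had 2 and 0, the strongest with a score of 37.1. Grhl3, a transcription factor of barrier formation, had 3 and 0, and Dsg1a, a desmosomal cadherin of differentiated layers, had 3 and 0. Ivl, Fst, Krt10 and Lamb3 had 2, 2, 1 and 1 WT-SOX9-only regions and no SOX9+ARID1a-only region.

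Around hair follicle genes (30 listed, 28 with a region) lay 242 regions. Of these, 30 were WT-SOX9 only (12.4%, 8.82 to 17.1), 49 SOX9+ARID1a only (20.2%, 15.7 to 25.8) and 163 shared. Over all regions the shares were 19.1% and 23.9%, so the WT-SOX9-only share was lower here too. By gene, 11 had more SOX9+ARID1a-only than WT-SOX9-only regions, 5 had fewer and 14 had equal numbers, counting the 2 without a region as equal. The SOX9+ARID1a-only share was 32.3% with peaks cut to 200 bp, beside 29.99% of all regions, and 12.1% with a score of at least 5 required of regions of one list only, beside 16.4% of all. Nfib, which maintains hair follicle stem cells, had 5 WT-SOX9-only regions and 2 SOX9+ARID1a-only. Gli2, the Hedgehog effector, had 1 and 7, and Runx1, a follicle stem cell activator, 1 and 6. Foxp1 had 6 and 9 beside 42 shared regions.

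Genes of the AP1 family held 4 WT-SOX9-only (8.70%, 3.43 to 20.3), 11 SOX9+ARID1a-only (23.9%, as over all regions) and 31 shared regions, with Fosl2 (1 and 4) and Junb (1 and 3) among them. Genes for SWI/SNF subunits held 20, 51 and 94, but 16 of the 51 lay at Arid1a, the delivered gene. Without Arid1a the counts were 18, 35 and 89, or 24.6% SOX9+ARID1a only, near the 23.9% of all regions. Arid1b, the paralogous subunit, had 3 and 12, and Smarca4, the ATPase BRG1, 2 and 4. Integrin and basement membrane genes held 15 WT-SOX9-only (of 107), 13 SOX9+ARID1a-only (12.1%, 7.24 to 19.7) and 79 shared regions, the SOX9+ARID1a-only share being below that of all regions.

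Genes of TGF-beta signalling and epithelial-mesenchymal transition held 24 WT-SOX9-only (23.1%, 16.03 to 32.05), 18 SOX9+ARID1a-only (17.3%, 11.2 to 25.7) and 62 shared regions. Both intervals held the share of all regions (19.1% and 23.9%). Cdh2, encoding N-cadherin, carried 8 of the 24, with 0 SOX9+ARID1a-only regions and 1 shared. The 8 had scores of 5.12 to 29.3, and 1 lay at the promoter (score 19.7). A noDOX peak overlapped 3 of them, beside 34.5% of all WT-SOX9-only regions. Zeb2, a repressor of epithelial genes, had 5 WT-SOX9-only regions and 2 SOX9+ARID1a-only. Smad3, a TGF-beta effector, had 0 and 4, and Cdh1, encoding E-cadherin, 0 and 3.

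By nearest coding TSS, the genes with the most WT-SOX9-only regions were Cdh2 (26), Pde4d (22), Sema6a (20), Pik3c3 (19), Nckap5 (15), Mecom (15), Magi1 (15) and Tcf4 (15). The genes with the most SOX9+ARID1a-only regions were Myc (26), Lpp (22), Pard3 (22), Gm26897 (21), Klf4 (21), Cdh13 (19), Irs2 (19) and Auts2 (18). Cdh2 had 1 SOX9+ARID1a-only region and 5 shared. A SOX match was held by 5 of its 26 WT-SOX9-only regions, beside 11.97% of that class. Klf4, a factor of epidermal barrier differentiation, had 3 WT-SOX9-only and 12 shared regions. Of its 21 SOX9+ARID1a-only regions, 9 held an AP1 match and 11 a noDOX peak, beside 30.4% and 54.0% of that class. Myc, the growth regulator, had 4 WT-SOX9-only and 44 shared regions. Of its 26 SOX9+ARID1a-only regions, 16 were open in noDOX, beside the same 54.0%. Genes in long intergenic spans collect more regions by this assignment. Of the genes with the most SOX9+ARID1a-only regions, Gm26897 and Auts2 lie on chr5, Pard3, Cdh13 and Irs2 on chr8 and Lpp on chr16. SOX9+ARID1a-only regions made up 33.6%, 28.8% and 28.2% of the regions there, beside 23.9% over all chromosomes. Klf4 lies on chr4 (24.6%) and Myc on chr15 (22.6%). Cdh2, Sema6a, Pik3c3 and Tcf4 lie on chr18, where WT-SOX9-only regions made up 22.2%, beside 19.1% over all.

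**Figure D5:**
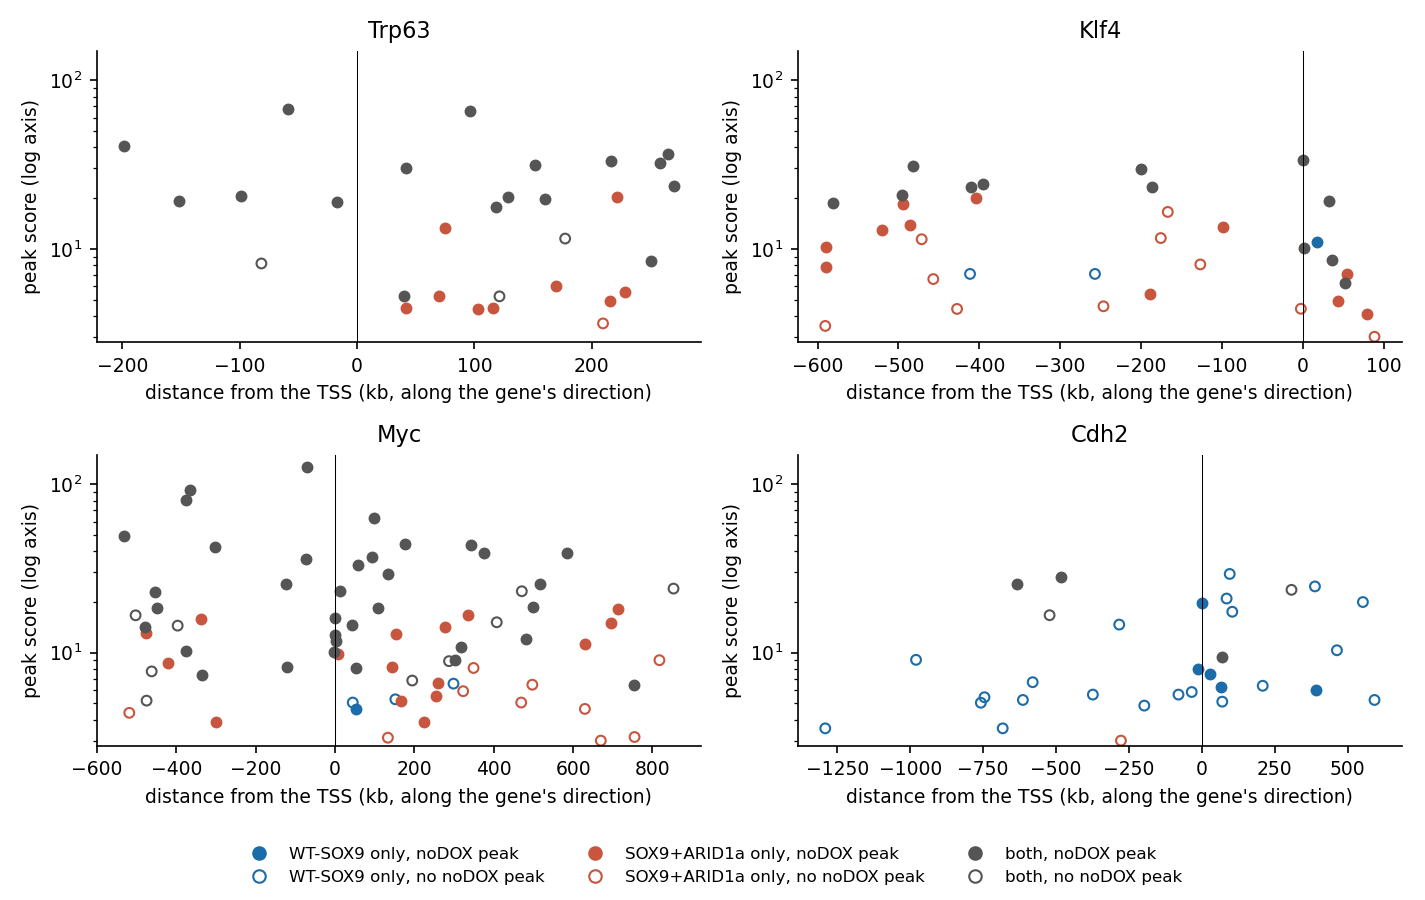
Regions nearest to Trp63, Klf4, Myc and Cdh2 by distance from the TSS (x axis, kb, along the gene's direction) and the higher of their 2 peak scores (y axis, log scale), coloured by class and filled where a noDOX peak overlaps. SOX9+ARID1a-only regions lie through Trp63 (10), Klf4 (21) and Myc (26), and WT-SOX9-only regions through Cdh2 (26).

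The strongest regions of each class were examined singly. Of the 8 highest-scoring WT-SOX9-only regions, 5 lay at promoters (Sema4f, Ptprs, Nrxn3, Mylip and Enox2), with scores of 45.5 to 58.6 and a peak in noDOX in each. The highest, with a score of 94.1, lay 111327 bp from the TSS of Slc1a3, a glutamate transporter gene, and was open in noDOX, ΔHMG-SOX9 and ΔTA-SOX9 alone of the other lists. A further region, nearest to Alx1 (48.0), lay between genes. None of the 8 highest-scoring SOX9+ARID1a-only regions lay at a promoter. They were nearest to Pak3 (90.2), Phtf2 (72.1), Adam26b (70.6), Tbc1d30 (62.1), Tns3 (58.3), Unc5b (57.4), Rbfox3 (56.8) and Degs2 (55.6). All but the Pak3 region overlapped a noDOX peak.

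Among the largest rises in rank of shared regions were those at Stim2 (score 3.04 in WT-SOX9 and 72.5 in SOX9+ARID1a), Wscd2 (3.03 and 43.2), Chchd4 (3.35 and 58.0) and Sh3bp5 (3.04 and 42.5), none of them a promoter. The largest falls were at Filip1l (127.9 and 3.01), Arhgap26 (96.5 and 3.30), Arrdc4 (115.7 and 3.46), Pdrg1 (38.0 and 3.10) and Lama4 (44.2 and 3.46). Of these, the Arhgap26, Arrdc4 and Lama4 regions lay at promoters.

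The classes were unevenly spread over chromosomes. On chr5, SOX9+ARID1a-only regions made up 33.6% of 4488 regions and WT-SOX9-only regions 11.4%, a log2 ratio of their numbers of 1.56. On chr8 the shares were 28.8% and 15.1%, whereas on chr6 they were 18.7% and 26.5%. Shared regions of chr5 ranked higher in SOX9+ARID1a by a median of 8.40 percentiles, against 1.03 over all shared regions. Of the total score, chr5 took 8.21% in SOX9+ARID1a and 8.12% in SOX9+AFOS, against 5.38% in WT-SOX9, 6.46% in noDOX and 4.83% to 4.96% in AFOS, ΔHMG-SOX9 and ΔTA-SOX9. The difference was not limited to chr5. On chr8 SOX9+ARID1a and SOX9+AFOS took 7.21% and 7.04%, against 5.503% to 6.36% in the other culture lists. On chr16 they took 3.601% and 3.85%, against 2.801% to 3.43%. On chr13 both were lower, at 2.57% and 2.24%, against 3.16% to 3.43%. On chr10 (5.36% and 5.22%) both lay within the range of the others. What sets these chromosome shares was not tested. Of the genes named above, Fosl2 lies on chr5, Junb and Cdh1 on chr8, and Trp63 and Runx1 on chr16. The part of the chromosome in the counts at single genes was not tested. Leaving out chr5 alone, chosen after seeing the data, AP1 was matched in 30.5% of SOX9+ARID1a-only and 11.2% of WT-SOX9-only regions. No other chromosome was left out. The densest 1-Mb windows of SOX9+ARID1a-only regions were at chr5:35000001-36000000 (41 of 73 regions), chr5:36000001-37000000 (37 of 83) and chr11:76000001-77000000 (35 of 92). Those of WT-SOX9-only regions were at chr18:47000001-48000000 around Sema6a (25 of 38, with 0 SOX9+ARID1a only), chr6:54000001-55000000 (23 of 50) and chr6:94000001-95000000 (23 of 56).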

How the data were processed

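Per the study's methods and the submitters' processing notes, paired-end reads were mapped on GRCm38 by the authors (Bowtie2 2.2.9), both replicates of each group were joined, MACS2 2.1.1 called peaks with duplicates kept, and peaks were retained with a normalized score of at least 3. The deposited score is the authors' peak score. Its formula is not given in the sources used here, and read depth is unknown. Peak ends were checked against GRCm38 chromosome lengths. Here, 2 lists were merged at 1 bp overlap (pandas 2.3.3). Percentiles were ranks of the score within a list. Genes and TSSs came from a GENCODE mouse annotation of GRCm38, loci were gene bodies with 10 kb on either side, and markers counted if a peak lay within 500 bp of a start. Motifs were sought in the central 200 bp. Merging, matching and intervals were tested on simulated data. The named regions were the 8 highest-scoring of each one-list class outside Sox9 and Arid1a, the 5 largest rank shifts each way, the 8 genes with the most regions and up to 3 windows a class. Some regions that these rules name are not reported here. Members, lists and rules were chosen with earlier results of these data known. Alternatives changed the score minimum, list size, overlap, peak width, motif window, gene set and transgene loci.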

Additional observations from a re-analysis of the deposited data

Results flagged for a closer look

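Peaks over Arid1a exons past the first were also present in arms whose labels name no ARID1a: 9 in the AFOS list (scores of 3.17 to 8.69) and 7 in the SOX9+AFOS list (3.43 to 7.86). The noDOX, ΔHMG-SOX9 and ΔTA-SOX9 lists each had 1, and WT-SOX9 had 0. The highest score in the SOX9+ARID1a list, with 14 such peaks, was 38.2. The AFOS and SOX9+AFOS lists did not form the main classes, and their counts were above that of the noDOX list. Both lists were used above to place the regions, and SOX9+AFOS was also set against WT-SOX9. What these peaks mean for those uses was not tested. The source of these peaks was not tested.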

How the results depend on the processing

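No paired analysis was possible because each group was 1 list of merged replicates, and for the same reason no replicate could be left out. None of the recomputed differences of shares changed sign. The 65 recomputed values also hold counts and locus shares, which cannot be negative. Of the 65, 44 stayed within the interval of the reported value or within 1.5 times a count. With a score of at least 5 in both lists the noDOX difference was 24.2 and the TSS difference -16.2 percentage points. With lists of equal size the noDOX difference was 21.6. The order of the one-list counts reversed there, at 15105 WT-SOX9-only and 13075 SOX9+ARID1a-only regions, though each stayed within 1.5 times its reported count. With peaks cut to 200 bp the differences were 5.46 (SOX), 16.9 (AP1), 18.1 (noDOX) and -7.11 (TSS), and the SOX9+ARID1a-only shares 35.2% (epidermal) and 32.3% (hair follicle), beside 29.99% of all regions. Requiring a score of at least 5 of regions of one list only gave 6642 WT-SOX9-only and 8989 SOX9+ARID1a-only regions, differences of 7.97 (SOX), 20.3 (AP1), 27.2 (noDOX) and -14.5 (TSS), and shares of 17.2% (epidermal) and 12.1% (hair follicle), beside 16.4% of all. Scanning whole regions gave a SOX difference of 11.3. Regions over 1 kb from a TSS, chosen after seeing the data, gave 8.15 (SOX), 17.9 (AP1) and 25.7 (noDOX). The causes were not tested, and unknown depth limits all counts of regions in one list only.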
